A study of Mus musculus with 14 samples.

Results

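Conditional loss of the histone demethylase KDM6B was set against its control in the cerebellum through H3K27me3 ChIP-seq peak lists, with 3 Kdm6b-cKO libraries and 2 Kdm6b-WT libraries taken from a series of 14. Overlapping or touching peaks of these 5 lists were joined into 48868 regions. A region was called gained when all 3 Kdm6b-cKO libraries and no Kdm6b-WT library had a peak in it, lost when both Kdm6b-WT libraries and no Kdm6b-cKO library did, and kept when all 5 libraries did. This gave 4594 gained, 29 lost and 3070 kept regions. According to the methods, Kdm6b-cKO mice carried Atoh1-Cre and Kdm6b fl/fl alleles and Kdm6b-WT mice were littermates with the same Kdm6b fl/fl alleles and no Cre, so the floxed alleles were shared and Cre itself had no separate control. The loxP sites flank the exons that encode the catalytic Jumonji-C domain, and the paper used Atoh1-Cre to delete Kdm6b in granule neuron precursors. The tissue also held other cells, and which of them kept Kdm6b was not tested here. Tissue was taken at postnatal day 14 (P14) according to the methods, while the labels give no age for these libraries. Whether a library was 1 mouse is not settled by the methods, which define a replicate as the tissue of an individual mouse but describe pooled cerebella for wild-type ChIP samples of this age. Mice of both sexes were used. The other 9 libraries of the series are an age series, with 3 each at P7, P14 and P60, and serve below only as a yardstick.

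H3K27me3 is laid down by Polycomb repressive complex 2 through its EZH subunits and marks promoters whose genes are held silent, many of them CpG-rich promoters of developmental regulators. KDM6B, also called JMJD3, and its relative KDM6A remove the methyl groups and so oppose Polycomb. Cerebellar granule neurons are the most numerous neurons of the brain and mature after birth, when progenitor genes are shut down and genes of mature neurons are switched on.

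The positions in the 5 lists had to be placed on a genome before any gene could be named. Over most of the genome they did not match mouse GRCm38. Of the peaks, 73, 74 and 44 in the Kdm6b-cKO lists and 25 and 25 in the Kdm6b-WT lists lay past the end of a GRCm38 chromosome, against 0 in each list of the age series. Among peaks wider than 1 kb, 11.9 to 13.5% lay within 1 kb of a transcription start site (TSS) in the 5 lists, against 57.7 to 65.2% in the 3 P14 lists. Set against the age series, the positions were displaced by amounts that stayed constant over long stretches, with a median of 133 kb, and 5.21% of the 2459 windows of 4 Mb with a clear offset lay within 200 bp of no displacement. Positions fitted GRCm38 in parts of 4 stretches, on chromosomes 4, 6, 15 and 18, which add up to 97 windows of 1 Mb or 3.56% of the genome. In these readable stretches the share of wide peaks near a TSS was 46.0, 39.0 and 46.3% in the Kdm6b-cKO lists and 18.2% (of only 11 peaks) and 38.8% in the Kdm6b-WT lists. The mm9 build was not tested here. Genes are therefore named only in the readable stretches, and a region elsewhere is given at the position its list states, with no gene. Kdm6b, Grin2c and Grm4 lie on chromosomes 11, 11 and 17 and could not be read, and neither could any marker of granule neurons, astrocytes, oligodendrocytes, microglia, interneurons, endothelium or unipolar brush cells, so the tissue label was not checked against them.

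The sequences under 3 gained promoters and the only lost promoter are shown here. The gained stretches were picked for their CpG density, so their CpG counts are no comparison with the lost one. Each is a stretch of 200 bases of GRCm38 (RefSeq) outside exons, and for the gained promoters it is the most CpG-dense such stretch within 3 kb of a TSS that all 3 Kdm6b-cKO lists covered, read on the strand of the gene. Capitals mark CpG dinucleotides (the letters CG, which read the same on both strands) in these 3. The Tox stretch at chr4:6990158-6990357 is in an intron of the gene (chr4:6686353-6991557, minus strand) and holds 28 of them. The Sema5a stretch at chr15:32245610-32245809 is in an intron of the gene (chr15:32244810-32696341, plus strand) and holds 11. The Svep1 stretch at chr4:58207016-58207215 lies upstream of the gene (chr4:58042442-58206859, minus strand) and holds 7. In the Map3k7 stretch at chr4:31987660-31987859, which lies within the gene (chr4:31964097-32023467, plus strand) and holds no CpG, capitals instead mark 7 copies of the same 16 bases.
Tox: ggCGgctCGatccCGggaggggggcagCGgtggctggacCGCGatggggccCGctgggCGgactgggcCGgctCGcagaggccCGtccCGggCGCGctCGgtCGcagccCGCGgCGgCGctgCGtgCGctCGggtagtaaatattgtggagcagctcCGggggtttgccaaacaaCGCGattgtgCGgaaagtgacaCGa
Sema5a: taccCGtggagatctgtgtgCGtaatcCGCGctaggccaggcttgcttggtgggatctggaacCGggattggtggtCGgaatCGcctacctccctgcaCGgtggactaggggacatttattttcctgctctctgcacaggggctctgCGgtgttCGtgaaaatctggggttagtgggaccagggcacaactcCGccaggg
Svep1: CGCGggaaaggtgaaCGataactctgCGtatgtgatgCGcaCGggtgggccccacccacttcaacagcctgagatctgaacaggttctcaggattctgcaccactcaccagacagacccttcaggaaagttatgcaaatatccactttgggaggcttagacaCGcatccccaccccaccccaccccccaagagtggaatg
Map3k7: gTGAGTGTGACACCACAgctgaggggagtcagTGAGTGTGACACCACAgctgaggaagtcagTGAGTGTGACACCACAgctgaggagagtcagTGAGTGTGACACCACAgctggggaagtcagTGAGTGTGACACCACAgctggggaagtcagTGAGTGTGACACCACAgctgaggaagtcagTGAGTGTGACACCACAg

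H3K27me3 peaks covered more sequence in every Kdm6b-cKO library than in either Kdm6b-WT library. The lists held 29511, 34000 and 16574 peaks in Kdm6b-cKO, against 6188 and 7673 peaks in Kdm6b-WT. These peaks covered 19.9, 22.2 and 13.1 Mb in Kdm6b-cKO and 2.86 and 6.40 Mb in Kdm6b-WT. Neither measure overlapped between the genotypes. The mean covered length was 18.4 ± 4.70 Mb (SD, n = 3) in Kdm6b-cKO and 4.63 ± 2.50 Mb (SD, n = 2) in Kdm6b-WT, a ratio of 3.98, with a two-sided exact permutation p = 0.1 over the 10 ways of labelling the libraries, which is the smallest p that 3 against 2 allows. For peak number the ratio of means was 3.85 (exact permutation p = 0.2). No comparison of single values between these genotypes can therefore pass 0.05. With every list cut to its 6188 most significant peaks, the covered length was 5.50, 5.13 and 5.91 Mb in Kdm6b-cKO and 2.86 and 5.37 Mb in Kdm6b-WT, which overlap (difference 1.40 Mb, exact permutation p = 0.2).

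In the full lists, peak width overlapped between the genotypes and fold enrichment over the library's own background did not. The median peak was 475, 458 and 592.5 bp wide in Kdm6b-cKO and 339 and 650 bp wide in Kdm6b-WT (exact permutation p = 1). Peaks wider than 1 kb made up 20.3, 18.5 and 26.5% of the Kdm6b-cKO lists and 8.52 and 29.5% of the Kdm6b-WT lists (exact permutation p = 0.9). The 2 Kdm6b-WT libraries thus bracketed all 3 Kdm6b-cKO libraries in both measures. Among peaks of −log10 q of at least 4, the share wider than 1 kb was higher in Kdm6b-cKO by 15.2 points (exact permutation p = 0.1, the smallest possible). The median fold enrichment was 2.75, 2.71 and 2.86 in Kdm6b-cKO, below 3.51 and 2.91 in Kdm6b-WT (exact permutation p = 0.1). At equal peak number the difference in median fold enrichment was 0.143 in the other direction (exact permutation p = 0.7). The tissue was whole cerebellum, so a mark present in more cells and a stronger mark in the same cells cannot be told apart. Read numbers per library are unknown here, and list length moves with sequencing depth, so depth and genotype cannot be told apart. The labels also give the antibody of the Kdm6b-cKO libraries and of each Kdm6b-WT library different catalogue numbers, which run on in sequence through the samples of the series, whereas the methods name a single antibody.

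**Figure D1:**
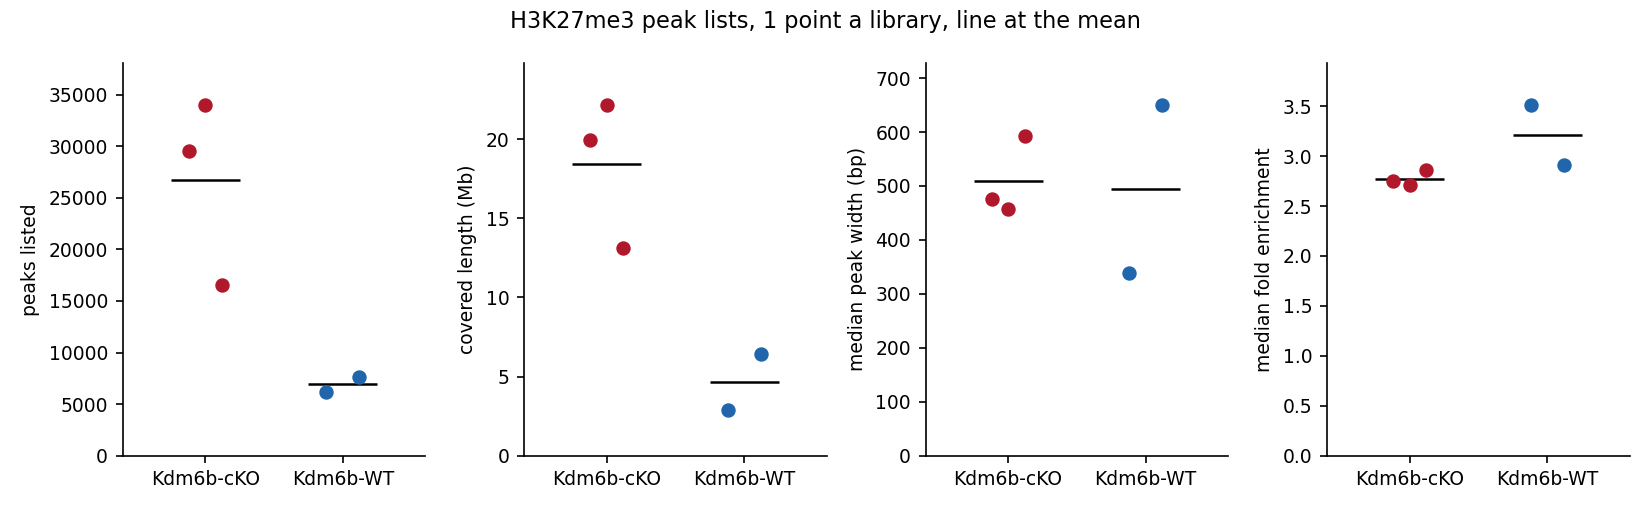
Number of peaks, total covered length (Mb), median width (bp) and median fold enrichment of the lists of the 3 Kdm6b-cKO and 2 Kdm6b-WT libraries (points), with a line at each group mean. Peaks and covered length lie higher in every Kdm6b-cKO library, fold enrichment lies lower, and the Kdm6b-WT widths of 339 and 650 bp lie on either side of the Kdm6b-cKO widths.

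Peaks of the Kdm6b-WT libraries were for the most part found again in Kdm6b-cKO. Of the Kdm6b-WT peaks, 77.0, 78.7 and 68.5% in replicate 1 and 84.3, 86.2 and 75.9% in replicate 2 overlapped a peak of Kdm6b-cKO replicates 1, 2 and 3. In the other direction 13.8 to 35.4% of the peaks of a Kdm6b-cKO library overlapped those of a Kdm6b-WT library. The Jaccard index, the shared over the combined covered length of a pair of lists, averaged 0.365 between Kdm6b-cKO libraries, 0.239 between the Kdm6b-WT libraries and 0.186 across genotypes. Pairs within a genotype exceeded pairs across genotypes by 0.148 (exact permutation p = 0.1, the smallest possible). The index falls when lists differ in length.

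Gained regions outnumbered lost ones, at 9.40% against 0.0593% of all merged regions, with 6.28% kept. Most regions were in neither class. Of the 48868 regions, 26387 had a peak in 1 Kdm6b-cKO library alone, 7842 in 2 Kdm6b-cKO libraries and no Kdm6b-WT library, and 1355 in 1 Kdm6b-WT library alone. Gained regions were intermediate in width and strength. Their median width was 1141 bp, against 1866 bp for kept and 373 bp for lost regions and 485 bp for all. The median of the best −log10 q in any library, a peak's significance in its own list, was 2.45 for gained, 4.67 for kept, 3.31 for lost and 1.90 for all regions. A best −log10 q of 4 or more was found in 11.2% of gained and 63.7% of kept regions. Gained regions lay on every chromosome, with 5.43% of the regions of chromosome X gained, the lowest share, and 11.6% of those of chromosome 11, the highest. Of the gained regions, 7.29% lay within 10 kb of a kept one.

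Where all 5 libraries had a peak, the Kdm6b-cKO peaks covered more of the merged region. A merged region takes its extent from the peaks of all 5 lists, so the longer lists weigh on it. Kept regions were covered over 81.7, 83.4 and 73.6% of their length in Kdm6b-cKO and over 35.1 and 60.7% in Kdm6b-WT. The groups did not overlap. Fold enrichment did not show the same order at these regions, with medians of 2.86, 2.77 and 2.99 in Kdm6b-cKO and 3.41 and 2.95 in Kdm6b-WT, so that Kdm6b-cKO replicate 3 lay above Kdm6b-WT replicate 2. Significance did, with a median −log10 q of 4.09, 3.79 and 3.71 in Kdm6b-cKO and 2.07 and 2.80 in Kdm6b-WT. Among the 6 widest kept regions, that at chr17:40153934-40159686 as listed was covered over 5750, 5750 and 5718 bp in Kdm6b-cKO and 5721 and 5705 bp in Kdm6b-WT, at fold enrichments of 1.71, 1.74 and 1.74 and of 1.77 and 1.73. This region was thus covered nearly whole in all 5 libraries.

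By position, the gained region with the most bases under peaks was chr9:107277355-107280769 as listed. It had 2839, 3285 and 3121 bp under peaks in Kdm6b-cKO and none in Kdm6b-WT, at fold enrichments of 2.31, 2.23 and 2.41. The second, chr8:92820307-92823990, had 3130, 2914 and 3130 bp in Kdm6b-cKO and none in Kdm6b-WT. Both were wider than the median kept region. The largest lost region, chr14:41426992-41428183, had no peak in Kdm6b-cKO and 483 and 1192 bp under peaks in Kdm6b-WT, and the next, chr12:113387959-113388881, none in Kdm6b-cKO and 529 and 923 bp in Kdm6b-WT.

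The share of each region under peaks was then compared by limma over the 21126 regions with a peak in 2 or more libraries. It was higher in Kdm6b-cKO in 2483 regions, or 11.8% of those tested, and lower in 10, or 0.0473% (Benjamini-Hochberg adjusted p under 0.05). Of the tested regions, 12436 (58.9%) had passed the minimum through Kdm6b-cKO libraries alone and could differ only upward. Among the 8661 regions with a peak in both genotypes, 880 were higher and all 10 lower ones were found, with a median difference of 30.0 points of percent covered. The largest difference was at chr8:71537081-71537863, with 98.2, 98.2 and 98.7% under peaks in Kdm6b-cKO and 0 and 0% in Kdm6b-WT (98.4 points, SE 22.3, limma adjusted p = 0.00891). This region is one of the 12436 that could differ only upward, and its extent was set by Kdm6b-cKO peaks alone. The largest opposite difference was at chr3:40604272-40605526, with 0, 0 and 32.9% in Kdm6b-cKO and 97.8 and 98.6% in Kdm6b-WT (−87.2 points, SE 24.5, limma adjusted p = 0.0116). Each of the 10 lower regions kept a peak in 1 or more Kdm6b-cKO libraries.

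The excess of gained over lost regions was not found with lists of equal length. When every list was cut to its 6188 most significant peaks, 343 regions were gained, 328 lost and 1874 kept. At the same covered length in every list the counts were 129 gained, 378 lost and 1118 kept. Of the 343 regions gained at equal peak number, 310 were also gained in the full lists, which is 90.4% of these 343 and 6.75% of the 4594. Of the 328 lost at equal peak number, 26 were lost in the full lists, while 210 (64.0%) were kept there. Those 210 had peaks in all 5 libraries that fell outside the top of the longer lists. With equal lists limma called 0 regions in either direction, both at the same peak number (928 higher and 61 lower at an unadjusted p under 0.05, of 6645 tested) and at the same covered length (379 and 177 of 4031). A stricter significance minimum shortens the lists but does not make them equal in length. The Kdm6b-cKO lists still held on average 8745 more peaks at −log10 q of 2 or more and 1614 more at 4 or more. Gained regions kept their excess there, with 1994 gained and 24 lost at 2 or more and 407 gained and 10 lost at 4 or more. This excess therefore cannot be told apart from the difference in list length. A 6188-peak list reached down to a −log10 q of 2.95, 2.90 and 2.39 in Kdm6b-cKO and 1.00 and 1.46 in Kdm6b-WT. In Kdm6b-WT replicate 1 this was the whole list.

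**Figure D2:**
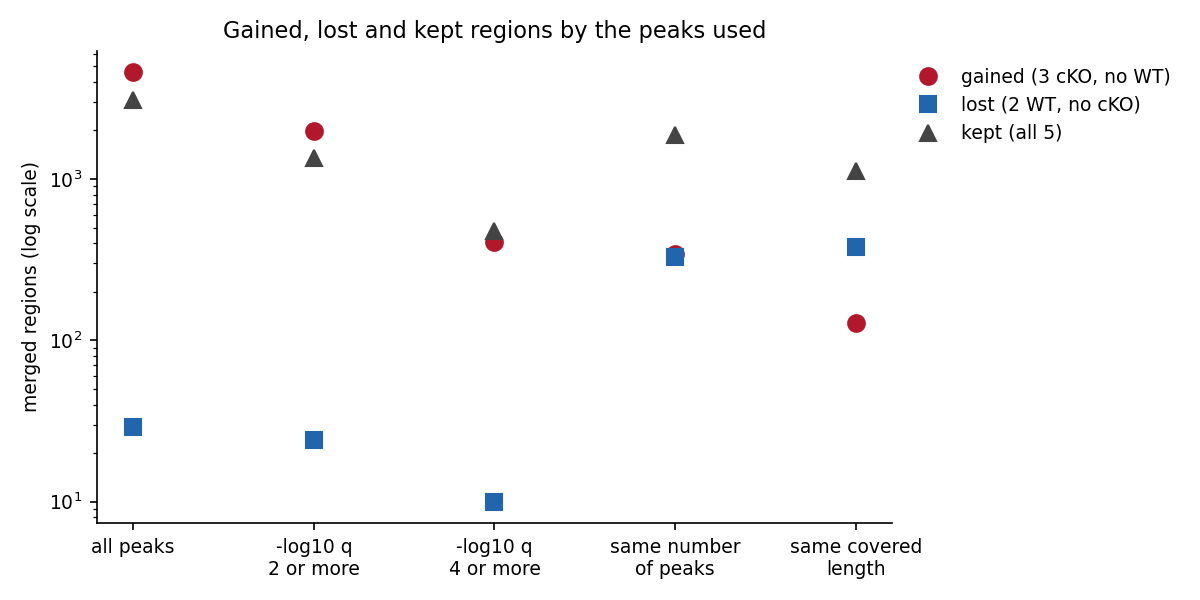
Merged regions (log scale) that were gained (circles), lost (squares) or kept (triangles) with all listed peaks, with peaks of −log10 q of 2 or 4 or more, and with lists cut to the same number of peaks or the same covered length. Gained regions exceed lost ones in the 3 settings on the left, are near them at equal peak number (343 and 328) and lie below them at equal covered length (129 and 378).

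In the readable stretches gained regions lay between kept regions and regions of 1 Kdm6b-cKO library alone in promoter overlap, CpG density and repeat content. Of 154 gained regions there, 49 (31.8%) overlapped a promoter, taken as 3 kb on each side of a protein-coding TSS, 24 lay in gene bodies and 81 between genes. Of 92 kept regions 43.5% overlapped a promoter, as did 14.7% of the 279 regions in 2 Kdm6b-cKO libraries and no Kdm6b-WT library, 8.24% of the 910 in 1 Kdm6b-cKO library alone, 3.92% of the 51 in 1 Kdm6b-WT library alone and 14.5% of all 1660. Median CpG density followed the same order, at 17.3 per kb in gained, 21.3 in kept, 8.20 in regions of 1 Kdm6b-cKO library alone and 7.19 in regions of 1 Kdm6b-WT library alone, against 7.70 per kb over all the readable stretches. The 3 lost regions there had a median of 21.6 per kb. Bases that RefSeq marks as repeats made up a median of 17.0% of a gained, 13.3% of a kept and 66.0% of a region found in 1 Kdm6b-cKO library alone. For regions of 1 Kdm6b-WT library alone this share was 15.1%, near that of gained and kept regions. Wider regions touch a promoter more easily, so these shares move with width.

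The share of covered length at promoters did not differ between genotypes beyond the spread of the libraries. It was 30.8, 28.5 and 39.1% in Kdm6b-cKO and 28.8 and 37.4% in Kdm6b-WT (difference −0.28 points, exact permutation p = 0.9). Of the peaks themselves, 17.8, 16.8 and 28.4% lay at promoters in Kdm6b-cKO and 26.4 and 28.6% in Kdm6b-WT (exact permutation p = 0.3). The order was another among the most significant peaks, with a −log10 q of at least 4, with 49.5, 35.7 and 32.1% of covered length at promoters in Kdm6b-cKO and 18.1 and 4.07% in Kdm6b-WT (exact permutation p = 0.1, the smallest possible). These last shares rest on 97, 107 and 62 peaks in Kdm6b-cKO and 43 and 30 peaks in Kdm6b-WT.

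Many gained regions carried H3K27me3 in the age series, and kept ones did so more often. A peak of at least 1 of the 3 P14 libraries overlapped 37.7% of gained and 81.5% of kept regions. Single P7 libraries had a peak at 25.3 to 45.5% of gained and 68.5 to 69.6% of kept regions. For any of the 3 P60 libraries the shares were 28.6% of gained and 73.9% of kept regions. No age-series library had a peak at 35.1% of gained, 13.0% of kept, 61.6% of regions in 2 Kdm6b-cKO libraries and no Kdm6b-WT library, and 82.4% of regions in 1 Kdm6b-cKO library alone. The readable stretches were found by overlap of the 5 lists with the age series, so a high overlap in them is in part a result of how they were chosen, and the order among classes is a description.

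**Figure D3:**
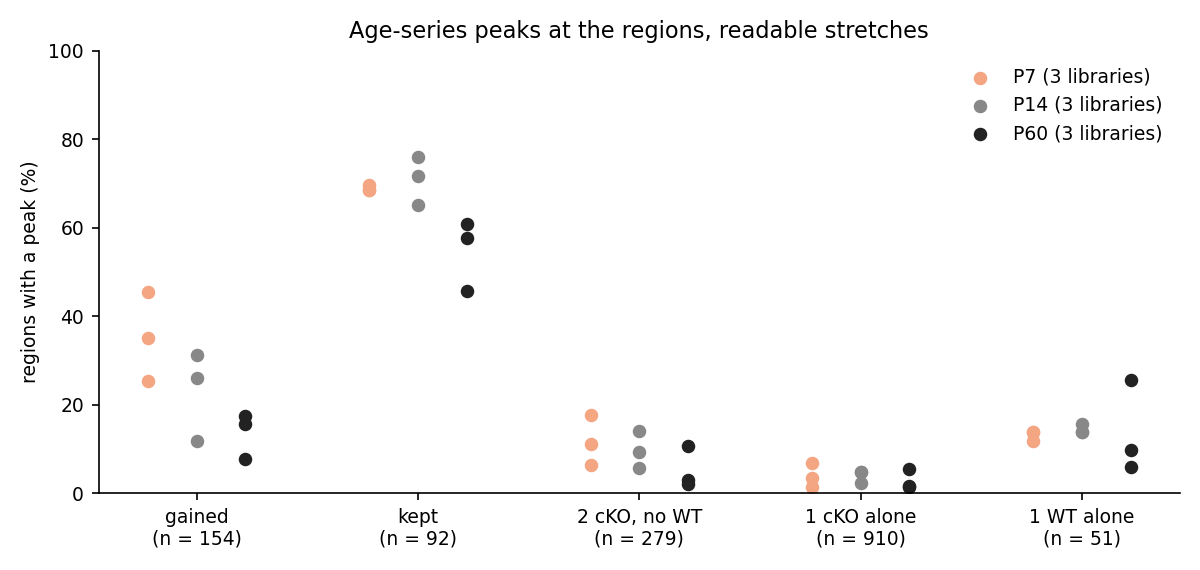
Percent of regions of each class in the readable stretches that overlap a peak of each P7, P14 and P60 library (1 point a library), with the number of regions under each class. Kept regions lie highest at 45.7 to 76.1%, gained regions follow at 7.79 to 45.5%, and regions found in 1 Kdm6b-cKO library alone lie lowest.

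Promoters also separated the genotypes. Of 517 protein-coding genes with a TSS in the readable stretches, 148, 143 and 122 promoters were marked, with 1 bp or more under peaks, in Kdm6b-cKO and 43 and 64 in Kdm6b-WT. The P14 libraries of the age series marked 67, 89 and 99 of the same promoters and the P7 libraries 127, 102 and 87. Kdm6b-WT thus lay below all 3 libraries of its own age in the age series and Kdm6b-cKO above them, across experiments that were processed to different positions. All 5 libraries left 346 promoters unmarked, among them those of the ribosomal protein genes Rps20 and Rpl30, which every cell transcribes. Gained promoters, marked in all 3 Kdm6b-cKO libraries and neither Kdm6b-WT library, numbered 43 (8.32% of 517), kept ones 38, and 1 was lost. Of the 43 gained, 25 were marked in some P14 library and 18 in none, while 35 of the 38 kept were marked in some P14 library. Of 60 promoters marked in all 3 P14 libraries, 53 were marked in all Kdm6b-cKO libraries, 30 in both Kdm6b-WT libraries and 14 in neither Kdm6b-WT library.

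Promoter coverage was then tested by limma in the 138 genes marked in 2 or more libraries. It is the percent under peaks of the most covered window among a gene's TSSs in each library, so a gene with several TSSs can be read at different windows in different libraries. Coverage was higher in Kdm6b-cKO in 55 genes (39.9%) and lower in 1 (0.725%). In 90 of the 138 (65.2%) every Kdm6b-cKO library lay above both Kdm6b-WT libraries, and the median difference was 14.2 points. Marks in Kdm6b-cKO alone had let 71 of the 138 genes into the test. Among the 66 genes marked in both genotypes 28 were higher and 0 lower, and among the 38 kept promoters 13 were higher and 0 lower, with a median difference of 18.8 points. With lists cut to 6188 peaks limma called 0 of 66 genes (11 higher and 3 lower at an unadjusted p under 0.05), and with lists of equal covered length 0 of 38 (3 and 2).

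The 12 genes with the largest differences were taken from those whose genotypes did not overlap, so their separation was fixed by the choice and their values are given as a description. Among them, Runx1t1, Dlx5, Tox, Met, Sema5a, Svep1 and Greb1l had no promoter peak in either Kdm6b-WT library. These entered the test through Kdm6b-cKO alone and could differ only upward. Runx1t1 encodes a transcriptional corepressor, and its promoter was covered over 37.1, 37.3 and 39.8% in Kdm6b-cKO and 0 and 0% in Kdm6b-WT (38.0 points, SE 4.42, limma adjusted p = 0.00141). The P14 libraries covered 0, 2.77 and 22.8% of it. The windows behind these values belong to more than 1 TSS of the gene. Dlx5, a homeobox factor of forebrain interneurons and skeleton, was covered over 34.3, 32.0 and 32.3% in Kdm6b-cKO and 0 and 0% in Kdm6b-WT (32.9 points, SE 3.74, limma adjusted p = 0.00141). Its P14 values of 8.40, 49.2 and 22.9% enclosed the Kdm6b-cKO values. Tox, an HMG-box factor known from T cell development whose sequence is shown above, had 34.6, 33.7 and 29.5% in Kdm6b-cKO and 0 and 0% in Kdm6b-WT (32.6 points, SE 3.88, limma adjusted p = 0.00141). Mkx, a homeobox factor of tendon, had 49.6, 37.5 and 28.0% in Kdm6b-cKO and 0 and 8.98% in Kdm6b-WT (33.9 points, limma adjusted p = 0.0142), with a wide P14 range of 3.27 to 59.3%. Without Kdm6b-WT replicate 1 the call on Mkx was lost (adjusted p = 0.0894). The P14 libraries ranged widely at these 4 genes.

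Met, Sema5a, Svep1 and Lingo2 encode proteins of the cell surface or the matrix. Met, the receptor of hepatocyte growth factor, was covered over 28.9, 31.8 and 33.4% in Kdm6b-cKO and 0 and 0% in Kdm6b-WT (31.4 points, SE 3.65, limma adjusted p = 0.00141). Sema5a, a semaphorin that guides axons, had 39.9, 31.8 and 21.5% in Kdm6b-cKO and 0 and 0% in Kdm6b-WT (31.1 points, SE 5.69, limma adjusted p = 0.00866). The call on Sema5a was lost without Kdm6b-WT replicate 1 (adjusted p = 0.0516). Its coverage was 0% in all 3 P14 libraries and 25.8, 13.3 and 10.9% in the P7 libraries. Svep1, a matrix protein, had 28.4, 33.4 and 33.4% in Kdm6b-cKO and 0 and 0% in Kdm6b-WT (31.7 points, limma adjusted p = 0.00141). Lingo2, a neuronal leucine-rich repeat protein, had 46.9, 55.7 and 26.2% in Kdm6b-cKO and 0 and 14.2% in Kdm6b-WT (35.8 points, SE 9.70, limma adjusted p = 0.0252). The call on Lingo2 was lost without Kdm6b-cKO replicate 1 or 2 or without Kdm6b-WT replicate 1 (adjusted p = 0.0640, 0.0729 and 0.159).

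Col15a1 and Fbxl7 were kept promoters that were covered more in Kdm6b-cKO. Col15a1, a collagen of basement membranes, was covered over 48.5, 48.3 and 47.9% in Kdm6b-cKO and 4.88 and 19.3% in Kdm6b-WT (36.1 points, SE 7.23, limma adjusted p = 0.0110). Fold enrichment in its region was 2.03, 1.95 and 2.05 in Kdm6b-cKO and 2.88 and 2.12 in Kdm6b-WT. Fbxl7, an F-box protein of ubiquitin ligases, had 49.0, 42.6 and 45.5% in Kdm6b-cKO and 8.08 and 17.3% in Kdm6b-WT (33.0 points, SE 6.61, limma adjusted p = 0.0110). Its fold enrichment was 2.43, 2.46 and 2.63 in Kdm6b-cKO and 3.38 and 2.74 in Kdm6b-WT. Coverage was higher and fold enrichment lower in every Kdm6b-cKO library at both genes. Greb1l, a gene known for kidney development in humans, completed the 12 largest differences together with Wnt16, with 27.4, 27.7 and 32.3% in Kdm6b-cKO and 0 and 0% in Kdm6b-WT (29.1 points, limma adjusted p = 0.00141).

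**Figure D4:**
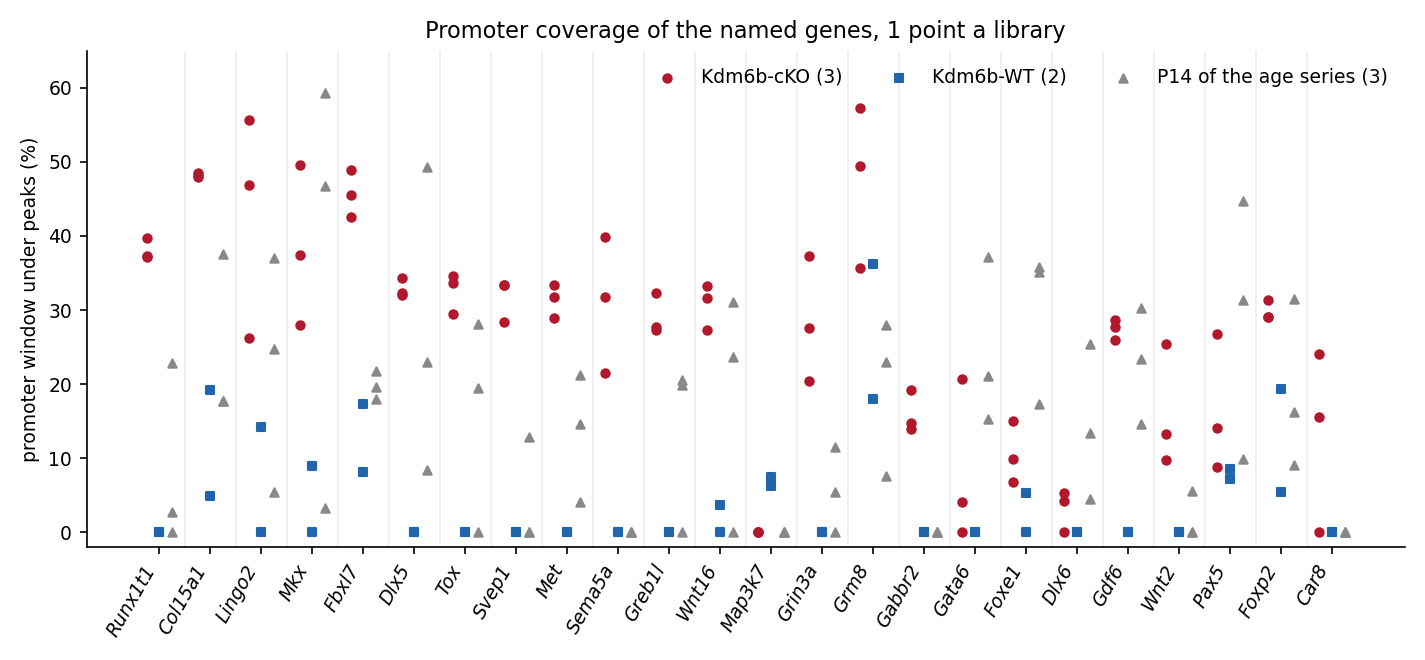
Percent of the most covered promoter window under peaks in each library of Kdm6b-cKO (circles), Kdm6b-WT (squares) and P14 of the age series (triangles) for the 24 named genes. The 12 genes on the left (Runx1t1 to Wnt16) were chosen for having every Kdm6b-cKO library above both Kdm6b-WT libraries, and at Map3k7 the order is the opposite, with 0% in Kdm6b-cKO and 7.48 and 6.20% in Kdm6b-WT.

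Fixed gene lists reached few genes in the readable stretches. All 3 secreted signals that could be read were higher in Kdm6b-cKO, where 39.9% of all 138 genes tested were. Gdf6 and Wnt2 had no peak in either Kdm6b-WT library, so they entered the test through Kdm6b-cKO alone and could differ only upward. Of the 138 genes tested, 71 entered in this way. Gdf6, a BMP family ligand, had 28.6, 25.9 and 27.7% in Kdm6b-cKO and 0 and 0% in Kdm6b-WT (27.4 points, SE 3.23, limma adjusted p = 0.00141). Wnt16 had 33.2, 31.6 and 27.3% in Kdm6b-cKO and 0 and 3.62% in Kdm6b-WT (28.9 points, limma adjusted p = 0.00242). Wnt2 had 13.2, 25.5 and 9.73% in Kdm6b-cKO and 0 and 0% in Kdm6b-WT (16.1 points, limma adjusted p = 0.0494), and its call was lost without Kdm6b-cKO replicate 1 (adjusted p = 0.0505) or without either Kdm6b-WT library (0.2495 and 0.173). The median of this list was 27.4 points, beside 14.2 points over all 138 genes tested.

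Of the 2 glutamate receptors tested 1 was higher, as was the 1 GABA receptor tested, beside 39.9% of all 138 genes tested. Grin3a and Gabbr2 had no peak in either Kdm6b-WT library, so they entered the test through Kdm6b-cKO alone and could differ only upward. Grin3a, an NMDA receptor subunit, had 27.5, 37.3 and 20.5% in Kdm6b-cKO and 0 and 0% in Kdm6b-WT (28.4 points, SE 5.23, limma adjusted p = 0.00866). Grm8, a presynaptic glutamate receptor, had 49.5, 57.3 and 35.7% in Kdm6b-cKO and 18.0 and 36.2% in Kdm6b-WT, which overlap (20.4 points, SE 10.6, limma adjusted p = 0.152). With peaks of −log10 q of 2 or more Grm8 was called higher (47.5 points, limma adjusted p = 0.00459), while quantile normalization turned its difference to −4.12 points. Gabbr2, a subunit of the GABA-B receptor, had 14.7, 19.1 and 13.96% in Kdm6b-cKO and 0 and 0% in Kdm6b-WT (15.9 points, SE 3.75, limma adjusted p = 0.0179), with 0% in all 3 P14 libraries. Without Kdm6b-WT replicate 1 neither Grin3a (adjusted p = 0.0548) nor Gabbr2 (0.151) passed, and Gabbr2 did not pass without Kdm6b-WT replicate 2 either (0.0926). Gabrr1 and Gabrr2 were unmarked in all 5 libraries, as were the potassium channel genes Kcns2 and Kcnd2, of which Kcnd2 is also a gene of mature granule neurons.

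Of the 4 readable factors of other lineages, Dlx5 was higher and 3 did not pass, beside 39.9% higher among all 138 genes tested. Gata6, a factor of endoderm and heart, had 20.6, 0 and 4.08% in Kdm6b-cKO and 0 and 0% in Kdm6b-WT (limma adjusted p = 0.237), against 15.2, 21.1 and 37.2% at P14. Foxe1, a thyroid factor, had 6.73, 9.90 and 15.0% in Kdm6b-cKO and 0 and 5.30% in Kdm6b-WT (limma adjusted p = 0.157), against 17.3, 35.1 and 35.7% at P14. Dlx6 had 4.25, 0 and 5.35% in Kdm6b-cKO and 0 and 0% in Kdm6b-WT (limma adjusted p = 0.184), although it neighbours Dlx5. Pax5, a factor of midbrain and hindbrain patterning, had 26.8, 14.1 and 8.85% in Kdm6b-cKO and 8.52 and 7.13% in Kdm6b-WT (limma adjusted p = 0.185), against 9.95, 31.4 and 44.8% at P14. For Foxe1 every Kdm6b-cKO library lay below every P14 library.

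Among markers of Purkinje cells, which Atoh1-Cre does not target, Foxp2 was higher in Kdm6b-cKO, with 31.3, 29.1 and 29.0% in Kdm6b-cKO and 5.38 and 19.3% in Kdm6b-WT (17.4 points, SE 5.55, limma adjusted p = 0.0436). The call on Foxp2 was lost when any library but Kdm6b-WT replicate 2 was left out (adjusted p = 0.0752 to 0.159). Car8 had 24.1, 15.6 and 0% in Kdm6b-cKO and 0 and 0% in Kdm6b-WT (limma adjusted p = 0.157), and Calb1 was unmarked in all 5 libraries. Thus 1 of the 2 Purkinje cell markers tested was higher, beside 39.9% of all 138 genes tested. 

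Map3k7, which encodes the kinase TAK1, had the only promoter called lower with the lists as deposited. Its window was covered over 0, 0 and 0% in Kdm6b-cKO and 7.48 and 6.20% in Kdm6b-WT (−6.84 points, SE 1.82, limma adjusted p = 0.0237). With no Kdm6b-cKO peak, Map3k7 entered the test through Kdm6b-WT alone and could differ only downward. The call was lost with no minimum number of marked libraries (limma adjusted p = 0.0525), with peaks of 300 bp or more (0.0626) and with the same number of peaks (0.0869). Quantile normalization called 12 promoters lower, of which Map3k7 alone was also called lower as listed. Gne, another of these 12, had 2.48, 4.42 and 3.00% in Kdm6b-cKO and 0 and 0% in Kdm6b-WT as listed. A lower call after this step thus need not mean less coverage as listed. No library of the age series had a peak at the Map3k7 promoter. The peak lies at chr4:31987498-31988021 on GRCm38, in the body of the gene and within 3 kb of the TSS of an internal transcript, at fold enrichments of 4.30 and 3.396 in Kdm6b-WT. As its sequence above shows, the region is a tandem repeat. At a shift of 61 bases 65.2% of its bases were identical, where gained and kept regions had a median of 30.4% at their own best shift and 24 of 246 reached 60% or more. The lost regions on chromosome 6 had 31.6 and 31.1% at their own best shift. The reads were 50 bases long, and the part of the repeat in the result was not tested.

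Of the 55 promoters called higher, 40 had a peak in some library once every list was cut to 6188 peaks. Mean coverage was then higher in Kdm6b-cKO at 32 of them and lower at 8. Over all 66 genes tested with the equal lists, the difference was positive in 78.8%, so the 40 did not stand out. Of these 40, 6 had a peak in all 3 Kdm6b-cKO libraries and none in Kdm6b-WT, and apart from Svep1 they are named after their values were seen. Cntfr, the ciliary neurotrophic factor receptor, was covered in the full lists over 25.0, 25.8 and 23.0% in Kdm6b-cKO and 0 and 0% in Kdm6b-WT (24.6 points, limma adjusted p = 0.00225), with 0% in all 3 P14 libraries. Zfp462, a zinc finger protein, had 27.9, 25.2 and 22.01% in Kdm6b-cKO and 0 and 0% in Kdm6b-WT (25.0 points, limma adjusted p = 0.00250). With no Kdm6b-WT peak in the full lists, both genes entered the test through Kdm6b-cKO alone and could differ only upward. Both came from the promoters called higher, and the equal lists are parts of the full ones. Their order was thus not independent of the choice in either set of lists. Of all 55 promoters, 13 had every Kdm6b-cKO library above both Kdm6b-WT libraries in the equal lists. Coro2a, of the actin-binding coronin family, had 17.3, 17.9 and 16.8% in Kdm6b-cKO and 0 and 0% in Kdm6b-WT, and Tmod1, which caps actin filaments, had 25.1, 16.3 and 13.1% in Kdm6b-cKO and 0 and 0% in Kdm6b-WT. Colec12, a scavenger receptor, had 35.2, 33.7 and 25.5% in Kdm6b-cKO and 0 and 10.0% in Kdm6b-WT, and lost its Kdm6b-WT peak in the equal lists. Col15a1 was the opposite case. At equal peak number its coverage was 0, 0 and 0% in Kdm6b-cKO and 4.88 and 19.3% in Kdm6b-WT (difference −12.1 points), since its Kdm6b-cKO peaks were not among the 6188 most significant.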

How the data were processed

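H3K27me3 ChIP-seq had been carried out on formaldehyde-fixed, sonicated P14 cerebellum. Per the methods the authors trimmed single-end reads with Trimmomatic 0.38, aligned them with STAR 2.7.2b to mm10 and called broad peaks per library with MACS2 2.1. The deposited lists give each peak a position, a score (10 times −log10 q), a fold enrichment over the local background, and −log10 p and −log10 q. A false discovery rate of 0.01 is stated, but the lists reach down to a −log10 q of about 1.00, and no input library is named. The lists hold no read counts, so the authors' DESeq2 test could not be run, depth is unknown and precision rests on the number of libraries.

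Peaks were merged in Python 3.11.15 (numpy 2.4.6, pandas 2.3.3). GRCm38 and its GENCODE annotation were used where positions fitted, that is in windows of 1 Mb whose peaks matched the age series within 200 bp. Single values of the libraries were tested by exact permutation, two-sided. Coverage was compared by limma 3.58.1 (trend and robust, R 4.3.3) with Benjamini-Hochberg adjustment over all features with a peak in 2 or more libraries, and the fits were tested on simulated data first. With 200 regions changed by 30, 60 or 90 points, 1.49, 49.3 and 56.1% were recovered with 0 false calls. With 5281 changed, 21.7, 51.1 and 95.0% were recovered with 241 false calls. For 34 promoters changed, recovery was 83.3, 100 and 90.9% with 0 false calls. Replicates were taken as the labels number them. The sequence of 1 gained promoter is not reported here. Promoters were 3 kb on each side of a TSS. Genes were named when among the 12 largest differences in each direction with no overlap between genotypes, or up to 4 members of each fixed list, and otherwise as stated. The gene lists, regions and tests were chosen with earlier results of these data known. Alternatives were other q and width minimums, lists cut to the same number of peaks or covered length, another overlap or merging distance, no minimum number of libraries, quantile normalization, other TSS windows, a replicate block and leaving out each library.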

Additional observations from a re-analysis of the deposited data

How the results depend on the processing

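Peak number (leaving out each library in turn, cKO minus WT 16112 to 24825) and covered length (11.9 to 16.4 Mb) kept their direction, but the difference in covered length, 13.8 Mb as deposited, was 7.69 Mb at −log10 q of 2 or more, 1.62 Mb at 4 or more and 1.40 Mb with the same number of peaks. Median width (−141.5 to 169.5 bp), the share of peaks over 1 kb (−7.70 to 13.3 points, and 15.2 at −log10 q of 4 or more and 14.1 with the same number of peaks) and the promoter share of covered length (−4.59 to 4.04 points) did not, turning with Kdm6b-WT replicate 1 or 2 among others. The difference in median fold ranged from −0.738 to −0.135 and was 0.143 with the same number of peaks. At −log10 q of 4 or more the promoter share of peaks differed by 11.6 and of covered length by 28.0 points. Gained, lost and kept regions numbered 1994, 24 and 1359 at −log10 q of 2 or more, 407, 10 and 474 at 4 or more, 343, 328 and 1874 with the same number of peaks and 129, 378 and 1118 at the same covered length. Peaks of 300 bp or more gave 18 lost regions, and requiring 50% of a region gave 895 kept. Leaving out a library gave 5232 to 10132 gained, the most without Kdm6b-cKO replicate 3, 45 to 848 lost, the most without Kdm6b-WT replicate 2, and 3086 to 5518 kept, the most without Kdm6b-WT replicate 1. With 1 Kdm6b-WT library left, limma assumes that it varies like the other group.

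By limma, regions higher and lower in Kdm6b-cKO numbered 760 and 0 with no minimum number of libraries (6158 and 63 at an unadjusted p under 0.05), 362 and 1 at −log10 q of 4 or more, and 0 and 0 after quantile normalization (48 and 1066 unadjusted), with the same number of peaks or at the same covered length. Leaving out a library gave 1179 (without Kdm6b-WT replicate 1) to 5696 (without Kdm6b-cKO replicate 3) higher and 0 (without either Kdm6b-WT library) to 26 lower. Promoters higher and lower numbered 8 and 12 after quantile normalization, 4 and 0 at −log10 q of 4 or more, and 0 and 0 with the same number of peaks or the same covered length, and 18 (without Kdm6b-WT replicate 1) to 79 higher and 0 to 1 lower on leaving out a library. All 8 promoters higher after quantile normalization were also called higher as listed, against 1 of the 12 lower. No promoter was lower with no minimum, at −log10 q of 2 or more, with peaks of 300 bp or more, with windows of 1 kb or at the 5′ end alone. Quantile normalization turned the difference to −4.12 points at Grm8, −1.73 at Gata6, −5.02 at Foxe1, −4.69 at Dlx6, −12.3 at Pax5 and −2.87 at Foxp2. Gata6 and Dlx6 had 0 and 0% in Kdm6b-WT as listed, so their turn came without any Kdm6b-WT peak. The same number of peaks turned Col15a1 (−12.1), Lingo2 (−0.39) and Pax5 (−4.93), and the same covered length Pax5 (−2.53). The cause of these changes was not tested.

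Replicate numbers 1 and 2 occur in both genotypes. The deviations of same-numbered libraries correlated at 0.0478 and −0.0426 over regions. With only 2 Kdm6b-WT libraries, their deviations from the group mean mirror each other, so these values cannot decide whether same-numbered libraries were paired. With a replicate block, limma called 7314 regions higher and 43 lower and 92 promoters higher and 1 lower. Kdm6b-cKO replicate 3 has no Kdm6b-WT library of its number, so the block takes it up and the difference rests on replicates 1 and 2.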
